A study of Mus musculus with 48 samples.

Results

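A set of 43 genes for lysosomal enzymes and membrane proteins was followed, chosen by gene symbol, out of 22911 genes with a named probe on the array. The lysosome is the acidic compartment in which cells break down material taken up from outside or delivered by autophagy. A proton pump acidifies it, soluble hydrolases cut glycans, lipids and proteins, and heavily glycosylated membrane proteins line its wall and carry the products out. In the brain, microglia hold abundant lysosomes, some of whose membrane proteins serve as markers of phagocytic cells, and inherited loss of single lysosomal enzymes causes storage diseases that often affect neurons.

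RNA came from the cortex and hippocampus of the same 24 male mice and was hybridized on 48 one-color Agilent arrays, 6 per group, 1 for each tissue of a mouse. The mice were heterozygous APPswe/PS1dE9 (APP/PS1) animals on the C57Bl6/J background, which carry mutant human APP and presenilin-1 transgenes and develop amyloid plaques, or their WT littermates. The transgenes are driven by the mouse prion protein promoter and are not restricted to 1 cell type. Mice of each genotype drank either H2O or MSX-3, a prodrug of the adenosine receptor (A2AR) antagonist MSX-2, at 0.3 g/L. Treatment began at 3 months of age per the sample labels, or at 4 months per the description of the series, and ended at 9 to 10 months. All mice, treated or not, were perfused with saline before dissection, and both tissues are mixtures of neurons, glia and vessels.

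Levels are log2 intensities relative to the 75th percentile of the array, so that a level of 0 equals that percentile and 1 unit is a doubling. The scanner software failed to place the grid on 2 cortex arrays, from 1 WT H2O and 1 WT MSX-3 mouse. Their 75th percentiles were 2.41 and 3.03 intensity units, against 531 to 1073 on the other 46 arrays, and they were left out, which leaves 5 arrays in each of these groups. On the readable arrays 55.8 to 75.5% of spots were well above background. All 5 hippocampal markers had a higher level in the hippocampus than in the cortex of WT mice on H2O, with 4 of them called, and all 4 measured cortical markers were called higher in the cortex. The summed linear level of 4 choroid plexus markers varied widely between hippocampal arrays. On H2O it was 1.25 to 204 (median 73.9) in WT and 1.4 to 203 (median 3.01) in APP/PS1 mice. On MSX-3 it was 2.24 to 151 (median 4.65) and 2.03 to 165 (median 4.86). None of the 4 was called in a hippocampal genotype comparison. The part of choroid plexus tissue in the lysosomal genes was not tested. A gene was called when its fold change was at least 1.5 and its p-value from limma, adjusted by the BH method over all probes kept in the tissue, was under 0.05. The p-values measure the spread between mice, and in RNA from whole tissue fewer or more cells of a type cannot be told apart from less or more RNA per cell.

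All 43 genes had at least 1 probe, 63 probes in all, and 42 were measured above background in each tissue. Atp6v0d2, a proton pump subunit known from osteoclasts and macrophages, was not well above background on any array.

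In the cortex, 10 of the 42 genes were called in APP/PS1 mice on H2O compared to WT mice on H2O, and all 10 were higher. These were Cd68, Slc11a1, Gpnmb, Laptm5, Cd63, Gusb, Naglu, Man2b1, Hexa and Grn. Among all 37680 probes tested in the cortex, 1.34% were called higher. Of the membrane proteins 5 of 10 were called and of the glycosidases 4 of 12, whereas none of the 7 genes of lipid handling, 5 sulfatases, 3 proteases and thioesterases or 3 measured proton pump subunits was. The median log2 fold change of the 42 genes was 0.17, with 34 of them above 0, against 43.2% of all probes. The count of 10 became 2, Cd68 and Gusb, when the arrays with a failed grid were kept. It became 4, Cd68, Gpnmb, Gusb and Slc11a1, with the slide as a block in a fit of these groups alone. In a fit of all 4 cortex groups with the slide as a block, Naglu and Laptm5 were also among the genes called.

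**Figure D1:**
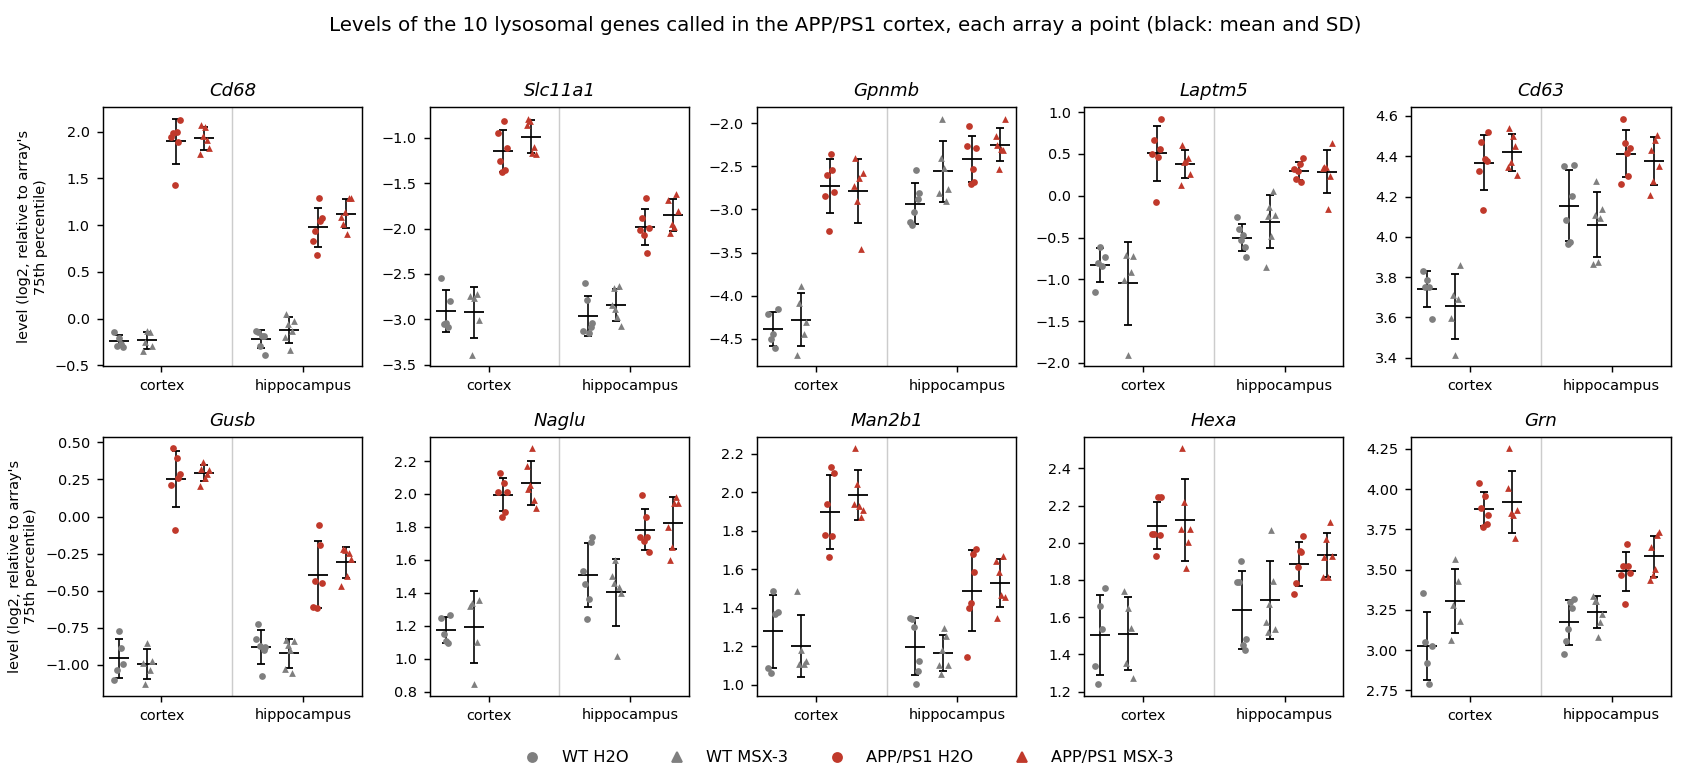
Level of the 10 genes called in the APP/PS1 cortex on every readable array (vertical axes, log2 relative to the array's 75th percentile; a separate scale for each gene). Gray symbols are WT and red symbols APP/PS1 mice, circles H2O and triangles MSX-3, and black bars give the mean and SD of 5 or 6 arrays; in the cortex the red and gray symbols do not overlap for any of the 10 genes, and circles and triangles of one color lie over each other.

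The largest change was that of Cd68, a glycosylated lysosomal membrane protein of macrophages and microglia. In the WT cortex on H2O its level was -0.30, -0.29, -0.27, -0.21 and -0.14 on the 5 arrays. On the 6 APP/PS1 arrays it ran from 1.43 to 2.12, with a median of 1.96. Every APP/PS1 array thus lay above every WT array, by a log2 fold change of 2.14 ± 0.11 (SE), or 4.40-fold (adjusted p = 1.24e-06, limma). Both probes of Cd68 were called, here and in the other 3 comparisons of the genotypes.

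Slc11a1, a metal ion transporter of phagocytic vesicles, stood at -3.08, -3.05, -3.04, -2.80 and -2.54 in the WT cortex and between -1.38 and -0.82 (median -1.19) in the APP/PS1 cortex. It was raised by 1.76 ± 0.14 on the log2 scale (3.38-fold; adjusted p = 1.9e-05). Gpnmb, a glycoprotein of melanosomes and lysosomes, was raised as well. Its levels were -4.61, -4.51, -4.44, -4.22 and -4.16 in WT mice and -3.26 to -2.35 (median -2.70) in APP/PS1 mice, a log2 difference of 1.66 ± 0.15 (adjusted p = 7.26e-05). Laptm5, a transmembrane protein of lysosomes in blood-derived and microglial cells, measured -1.16, -0.84, -0.81, -0.73 and -0.62 in WT and -0.07 to 0.92 (median 0.53) in APP/PS1 mice. The difference was 1.34 ± 0.16 (2.53-fold; adjusted p = 0.000571). Cd63 had a smaller fold change than these genes. This tetraspanin of late endosomes and exosomes rose from 3.59, 3.75, 3.75, 3.78 and 3.83 in WT mice to 4.13 to 4.52 (median 4.38), by 0.63 ± 0.09 (adjusted p = 0.0015). For all 4 genes the groups did not overlap.

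Lamp1 and Lamp2, the most abundant proteins of the lysosomal membrane, were not called, and their log2 fold changes were 0.19 (adjusted p = 0.407) and 0.21 (adjusted p = 0.327). Lamp1 stood at 5.34, 5.38, 5.38, 5.40 and 5.56 in WT and 5.44 to 5.75 in APP/PS1 mice, groups that overlap. The other membrane proteins were Scarb2, the receptor that carries glucocerebrosidase to the lysosome, Cln3, whose loss causes juvenile Batten disease, and the calcium channel Mcoln1. Their values lay between -0.02 and 0.20.

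Among the enzymes, Gusb, the β-glucuronidase that cuts glycosaminoglycans, changed most. Its level was -1.10, -1.03, -1.0, -0.88 and -0.77 in the WT cortex and -0.09 to 0.46 (median 0.27) in the APP/PS1 cortex. The log2 fold change was 1.21 ± 0.11, or 2.31-fold (adjusted p = 4.96e-05), and the groups did not overlap. Naglu, which acts on heparan sulfate, had a narrow spread in WT mice, with levels of 1.10, 1.11, 1.15, 1.25 and 1.26 against 1.86 to 2.13 (median 2.01) in APP/PS1 mice. It was raised by 0.82 ± 0.08 (adjusted p = 6.81e-05). Smaller changes were seen for Man2b1, the lysosomal α-mannosidase, and Hexa, the subunit of β-hexosaminidase that is deficient in Tay-Sachs disease. Man2b1 measured 1.06, 1.09, 1.37, 1.38 and 1.49 in WT and 1.66 to 2.13 (median 1.86) in APP/PS1 mice, a difference of 0.62 ± 0.12 (adjusted p = 0.0166). Hexa measured 1.24, 1.34, 1.53, 1.66 and 1.75 in WT and 1.93 to 2.25 (median 2.05) in APP/PS1 mice, a difference of 0.59 ± 0.11 that just reached the fold threshold (adjusted p = 0.0146). In both, the lowest APP/PS1 array was close above the highest WT array. Without mouse 258, 308, 323 or 81 neither was called, at values of at least 0.52 for Hexa and 0.57 for Man2b1.

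The other 8 glycosidases were not called. Gla (α-galactosidase A), Fuca1 (α-fucosidase), Idua (α-iduronidase), Glb1 (β-galactosidase), Galc (galactosylceramidase), Manba (β-mannosidase), Neu1 (a sialidase) and Gaa (acid α-glucosidase) had log2 fold changes from -0.03 for Gaa to 0.28 for Gla. The sulfatases Sgsh, Arsa, Galns, Arsb and Ids, which remove sulfate from glycosaminoglycans and sulfatides, ran from -0.13 for Ids to 0.22 for Sgsh. Enzymes of glycosaminoglycan breakdown were thus found both among the called genes (Gusb, Naglu) and among those that were not (Idua, Sgsh, Ids).

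Npc2, the soluble cholesterol carrier, lay just below the fold threshold. Its level was 0.87, 1.23, 1.23, 1.30 and 1.33 in WT and 1.62 to 1.91 (median 1.79) in APP/PS1 mice, with no overlap. The log2 fold change of 0.57 ± 0.10 passed the test of significance (adjusted p = 0.00927) but corresponded to 1.48-fold. Its membrane partner Npc1 was at 0.04. Plbd2, a phospholipase B-like protein, was at 0.27 (adjusted p = 0.15), with no overlap between the groups either. Lipa (acid lipase), Asah1 (acid ceramidase), Smpd1 (acid sphingomyelinase) and Psap (precursor of the saposins) lay between -0.05 and 0.16. The peptidases Tpp1 and Lgmn each had a value of 0.23 (adjusted p = 0.199 and 0.402) and the thioesterase Ppt1 of 0.04. The proton pump subunits Atp6v0d1, Atp6v1a and Atp6v1b2 had values of -0.19, -0.22 and -0.10, none of which passed the test.

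Of the regulators, Grn was called. It encodes progranulin, a secreted protein that reaches the lysosome and whose loss causes lysosomal storage disease and frontotemporal dementia. Its level was 2.79, 2.92, 3.03, 3.05 and 3.36 in WT and 3.77 to 4.04 (median 3.86) in APP/PS1 mice, a log2 difference of 0.85 ± 0.10 (adjusted p = 0.000656) with no overlap. This value comes from the brightest of 3 Grn probes. The other probes gave 0.30 (adjusted p = 0.753) and 0.62 (adjusted p = 0.243) and were not called, so the call for Grn rests on 1 probe. Of the 14 genes with more than 1 kept probe, Grn was the only one whose probes differed in the call. Tfeb, the transcription factor that drives lysosomal genes, was at 0.14 (adjusted p = 0.645).

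**Figure D2:**
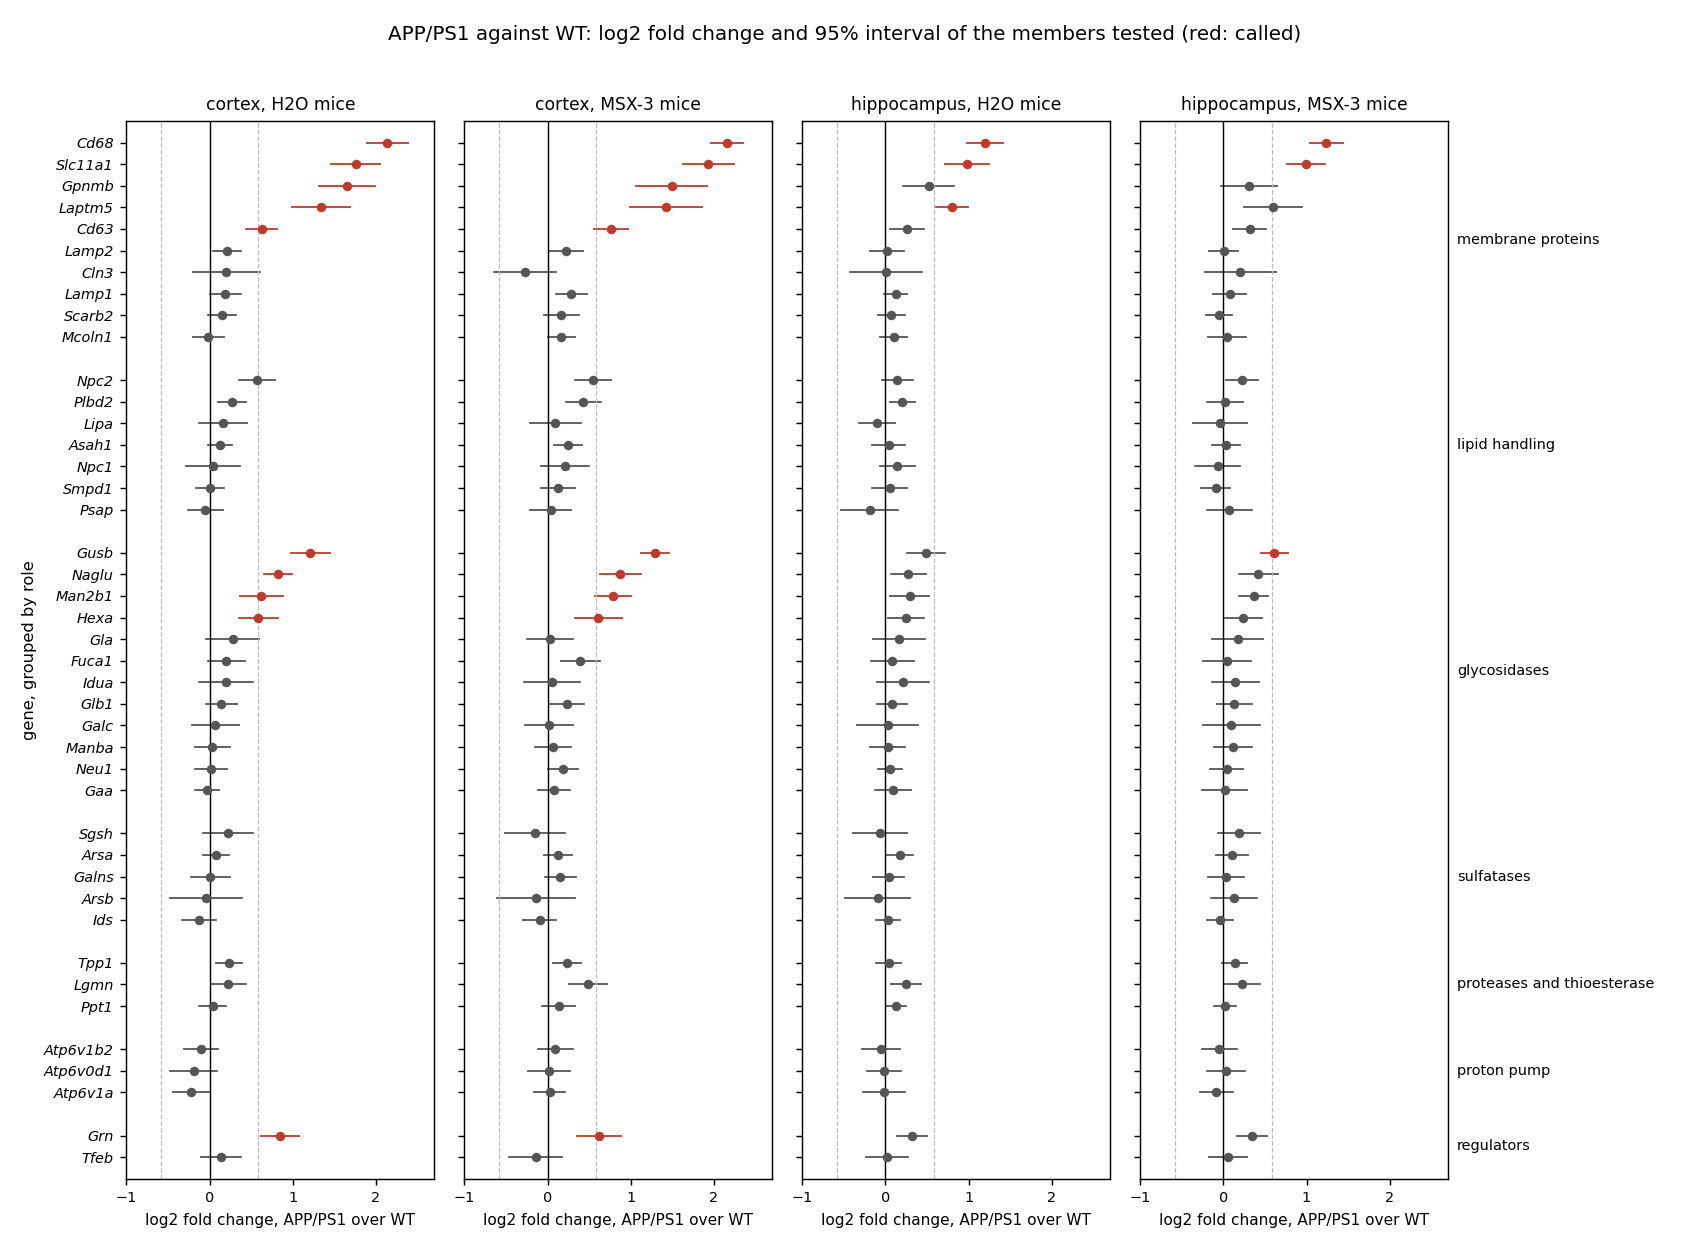
Log2 fold change of APP/PS1 over WT mice (horizontal axes) with 95% intervals for the 42 genes measured, grouped by role, in the 4 comparisons of tissue and treatment. Red marks called genes and dashed lines the 1.5-fold change; the 10 red genes of both cortex panels are the same, and 3 genes are red in each hippocampus panel.

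The comparison of genotypes in MSX-3 treated mice used other arrays and called the same 10 genes in the cortex, that is, 100% of each list. In this comparison 1.29% of all probes were called higher. The median over the 42 genes was 0.18 and 37 were above 0, against 44.8% of probes. With the failed array kept, Cd68 alone was called. No slide held readable cortex arrays of both genotypes in MSX-3 mice, so in a fit of these groups alone slide and genotype cannot be told apart. A fit of all 4 cortex groups with the slide as a block could be made. In it, Cd68, Slc11a1, Laptm5, Cd63, Gusb, Naglu and Man2b1 were among the genes called. Cd68 was at -0.34, -0.29, -0.25, -0.14 and -0.13 in WT and 1.76 to 2.07 in APP/PS1 mice (log2 fold change 2.16 ± 0.09; adjusted p = 1.76e-07). Slc11a1 was raised by 1.93 ± 0.14 (adjusted p = 9.23e-06), from -3.39, -3.01, -2.76, -2.74 and -2.72 to between -1.18 and -0.79. Gpnmb was raised by 1.49 ± 0.19 (adjusted p = 0.00114), from -4.68, -4.44, -4.30, -4.08 and -3.88 to between -3.46 and -2.40. As in H2O mice, none of these genes had overlapping groups.

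Laptm5 had levels of -1.90, -1.01, -0.91, -0.72 and -0.70 in WT mice on MSX-3 and of 0.13 to 0.61 in APP/PS1 mice, a difference of 1.43 ± 0.20 (adjusted p = 0.00177). Gusb changed from -1.13, -1.03, -0.99, -0.97 and -0.85 to between 0.21 and 0.36, a range of 6 arrays narrower than in H2O mice (1.29 ± 0.08; adjusted p = 1.8e-06). Cd63 changed from 3.42, 3.60, 3.69, 3.71 and 3.86 to between 4.31 and 4.54 (0.76 ± 0.09; adjusted p = 0.00072). The values of these 3 genes were again separated between the genotypes. Naglu went from 0.85, 1.10, 1.32, 1.34 and 1.36 to between 1.92 and 2.28 (0.88 ± 0.11; adjusted p = 0.00116), and Man2b1 from 1.11, 1.11, 1.12, 1.18 and 1.49 to between 1.87 and 2.23 (0.79 ± 0.10; adjusted p = 0.00103). Hexa, at 1.27, 1.35, 1.54, 1.65 and 1.74 against 1.86 to 2.51, and Grn, at 3.06, 3.18, 3.28, 3.43 and 3.56 against 3.70 to 4.25, were nearest to the thresholds. Their differences were 0.61 ± 0.13 (adjusted p = 0.0358) and 0.62 ± 0.12 (adjusted p = 0.0235). Hexa was not called on leaving out mouse 266, 267, 281, 303, 304, 319, 49 or 77 (0.54 to 0.67), nor Grn on leaving out mouse 266, 267, 282, 303, 319 or 77 (0.55 to 0.68). The other Grn probes gave -0.47 and 0.70 without a call, and the mean of the 3 probes was 0.28 (adjusted p = 0.668).

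Npc2 (0.55 ± 0.10; adjusted p = 0.0148) and Lgmn (0.48 ± 0.10; adjusted p = 0.0388) passed the test of significance in MSX-3 mice but were below 1.5-fold. The dimmer kept probe of Lamp2 did so too (0.46, adjusted p = 0.0206, limma), whereas the probe that stands for Lamp2 did not (0.22, adjusted p = 0.373). Plbd2 was at 0.43 (adjusted p = 0.0503), Fuca1 at 0.39 (adjusted p = 0.133) and Lamp1 at 0.28 (adjusted p = 0.176). In all, 17 of the 42 genes had every APP/PS1 array above every WT array in MSX-3 mice, against 2.36% of all probes, and 12 of 42 in H2O mice, against 2.06%. The 12 were the 10 called genes with Npc2 and Plbd2.

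The hippocampus showed fewer and smaller changes. In H2O mice 3 genes were called, all membrane proteins and all higher in APP/PS1 mice, against 0.338% of all 38128 probes called higher. Cd68 stood between -0.38 and -0.13 (median -0.19) in WT and between 0.68 and 1.29 (median 0.99) in APP/PS1 mice, a log2 fold change of 1.20 ± 0.10 (adjusted p = 9.31e-05). Slc11a1 went from between -3.15 and -2.60 (median -3.06) to between -2.27 and -1.66 (median -2.00), by 0.98 ± 0.12 (adjusted p = 0.00194). Laptm5 went from between -0.73 and -0.26 (median -0.50) to between 0.16 and 0.45 (median 0.31), by 0.80 ± 0.09 (adjusted p = 0.000842). The groups did not overlap for any of the 3. With the slide as a block, none of the 3 was called.

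In the hippocampus of MSX-3 mice 3 genes were called as well, against 0.312% of all probes. Cd68 stood at -0.34 to 0.05 (median -0.09) in WT and 0.90 to 1.29 (median 1.12) in APP/PS1 mice (1.24 ± 0.09; adjusted p = 6.13e-05). Slc11a1 stood at -3.07 to -2.63 (median -2.86) and -2.05 to -1.62 (median -1.88), respectively (0.99 ± 0.11; adjusted p = 0.000766). Gusb stood at -1.05 to -0.83 (median -0.89) and -0.47 to -0.22 (median -0.27), a difference of 0.61 ± 0.08 (adjusted p = 0.00207). These groups were separated too. Gusb was not called with the slide as a block (0.60; adjusted p = 0.128, or 0.55 in a fit of all 4 groups), on the first scan day alone (0.61; adjusted p = 0.118) or with normexp (0.56, below 1.5-fold), while Cd68 and Slc11a1 were called in each of these.

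Gusb and Laptm5 were thus each called in 1 of the 2 hippocampal comparisons, with values on both sides of the thresholds. Gusb in H2O mice was at 0.49 ± 0.11 (adjusted p = 0.0817), from -1.08 to -0.73 in WT and -0.62 to -0.06 in APP/PS1 mice, which did not overlap. Laptm5 in MSX-3 mice was at 0.60 ± 0.16 (1.51-fold; adjusted p = 0.323), from -0.85 to 0.06 and -0.16 to 0.63, which did. Of the genes not called, those next to the thresholds in H2O mice were Grn (0.32; adjusted p = 0.188), Gpnmb (0.52; adjusted p = 0.201), Lgmn (0.25; adjusted p = 0.31) and Plbd2 (0.20; adjusted p = 0.338). In MSX-3 mice they were Man2b1 (0.36; adjusted p = 0.111), Grn (0.34; adjusted p = 0.182), Naglu (0.42; adjusted p = 0.283) and Cd63 (0.32; adjusted p = 0.461).

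All 10 genes called in the cortex had a value above 0 in the hippocampus, from 0.25 for Hexa to 1.20 for Cd68 in H2O mice (median 0.40) and from 0.24 to 1.24 in MSX-3 mice (median 0.39). The other 32 genes ran from -0.19 for Psap to 0.25 for Lgmn in the hippocampus of H2O mice, and from -0.22 for Atp6v1a to 0.57 for Npc2 in the cortex. Over all 42 genes, 35 were above 0 in each hippocampal comparison, against 42.0% of all probes in H2O and 51.8% in MSX-3 mice. Every APP/PS1 array lay above every WT array for 5 genes in each, against 0.741% and 0.588% of probes.

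The difference between the tissues was tested directly, by subtracting the hippocampal from the cortical genotype effect. In H2O mice it was called for Cd68 (0.94 ± 0.15; adjusted p = 0.00349), Gpnmb (1.14 ± 0.21; adjusted p = 0.0166) and Gusb (0.72 ± 0.15; adjusted p = 0.0328), each larger in the cortex, against 0.256% of 36743 probes. Gusb was not called on leaving out 9 of the 12 mice in turn, nor Gpnmb without mouse 318, 323, 325 or 56. With the mouse as a block, as both tissues came from the same animals, only Cd68 was still called. Slc11a1 was at 0.78 (adjusted p = 0.0947). In MSX-3 mice it was called for Cd68 (0.92 ± 0.12; adjusted p = 0.000494), Slc11a1 (0.94 ± 0.17; adjusted p = 0.0143) and Gusb (0.67 ± 0.10; adjusted p = 0.0011), against 0.185% of probes, and for Cd68 and Gusb with the block. Slc11a1 was not called without mouse 267 or 281, and Gpnmb was at 1.18 (adjusted p = 0.0575). Cd68 was the one gene called in both treatments with and without the mouse as a block. Its call was lost in MSX-3 mice with the slide as a block (0.92; adjusted p = 0.0631), where none of the 42 genes was called, and in H2O mice with all arrays kept (1.01; adjusted p = 0.109). For Laptm5, Cd63, Naglu, Man2b1, Hexa and Grn the difference between the tissues was not called in either treatment, with values from 0.27 to 0.83.

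In WT mice on H2O, 2 of the 42 genes were called between the tissues, both lower in the cortex. Of 36743 probes kept in both tissues, 5266 were called either way, and 6.96% of the probes were called lower in the cortex. Gpnmb stood at -4.61 to -4.16 in the cortex and at -3.19 to -2.55 in the hippocampus, a difference of -1.45 ± 0.13 (adjusted p = 7.51e-06). The higher cortical change of Gpnmb thus started from a lower WT level. The size of these values depended on the processing. Under the other settings, all arrays kept included, the difference between WT tissues ran from -1.47 to -0.70. The genotype effect on Gpnmb in the H2O cortex ran from 0.88 to 1.69, and its difference between tissues from 0.52 to 1.18. Galns, the sulfatase deficient in Morquio syndrome, stood at -2.83, -2.76, -2.67, -2.63 and -2.46 in the cortex and at -2.07 to -1.62 in the hippocampus (-0.85 ± 0.11; adjusted p = 9.38e-05). For Cd68 the WT levels of both tissues overlapped. With the mouse as a block the count remained 2.

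For MSX-3 against H2O none of the 42 genes was called by limma in either tissue or genotype, nor was any probe of the array (0% called in each of the 4 comparisons). At an unadjusted p under 0.05 there were 2 of the 42 genes in the APP/PS1 cortex (2155 of all probes), 0 in the APP/PS1 hippocampus (1465), 1 in the WT cortex (3272) and 1 in the WT hippocampus (1932). The 2 genes of the APP/PS1 cortex were Lgmn, with a log2 fold change of 0.20, and Glb1, with 0.19 (adjusted p = 0.731 for both). In the WT cortex it was Cln3, at -0.80, -0.74, -0.68, -0.61 and -0.27 on H2O and -0.69, -0.14, -0.06, -0.06 and 0.16 on MSX-3, which overlap (0.46 ± 0.16; adjusted p = 0.564). In the WT hippocampus it was Gpnmb (0.37 ± 0.16; adjusted p = 0.977).

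The intervals limit how large an effect of MSX-3 these arrays leave room for. In the APP/PS1 cortex, the 10 genes raised over WT mice differed between MSX-3 and H2O by -0.13 for Laptm5 to 0.16 for Slc11a1, and their 95% intervals lay within -0.45 to 0.41. This comparison shares its H2O arrays with that of the genotypes. For Cd68 the interval was -0.21 to 0.27, around a difference of 0.03, in a gene raised by 2.14 over WT mice. The intervals of the 10 genes together spanned less in the APP/PS1 hippocampus and more in WT mice and for the interaction. They lay within -0.26 to 0.45 in the APP/PS1 hippocampus, -0.70 to 0.57 in the WT cortex and -0.36 to 0.73 in the WT hippocampus. Those of the interaction of genotype and treatment lay within -0.69 to 0.64 in the cortex and -0.65 to 0.45 in the hippocampus. In WT mice and for the interaction they thus reached past 1.5-fold, 0.585 on the log2 scale. The interaction of genotype and treatment was called for none of the 42 genes and for no probe (0%), and none of the 42 genes reached an unadjusted p of 0.05, against 1794 cortical and 1869 hippocampal probes. The smallest adjusted p was 0.744 for Cln3 in the cortex and 0.897 for Scarb2 in the hippocampus. The Cln3 values come from its brighter kept probe, at 0.20 on H2O and -0.27 on MSX-3 for APP/PS1 over WT in the cortex. The other kept Cln3 probe gave 0.23 and 0.27 there, without a call.

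**Figure D3:**
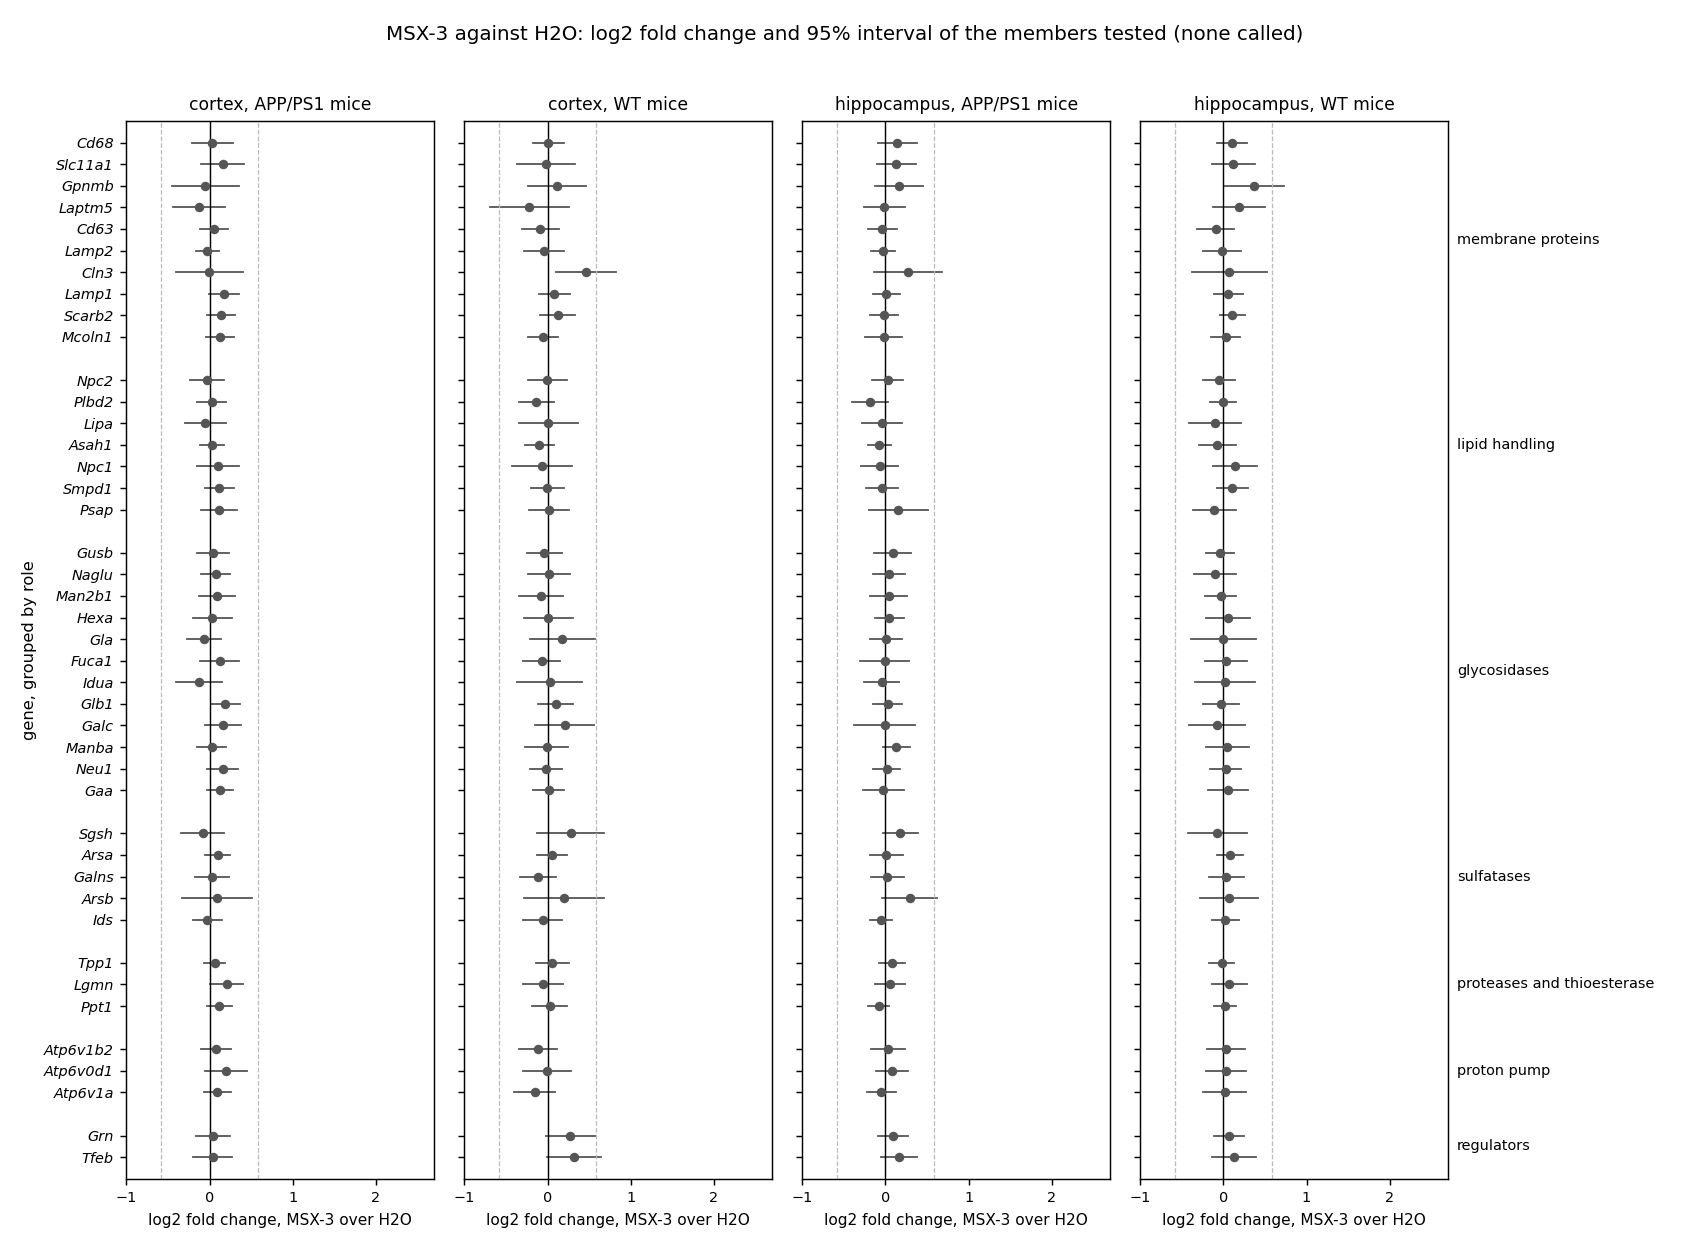
Log2 fold change of MSX-3 over H2O (horizontal axes) with 95% intervals for the same 42 genes, on the scale of the genotype comparison. No gene was called, and the largest values are 0.46 for Cln3 in the WT cortex and 0.37 for Gpnmb in the WT hippocampus.

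The order of the mice within a group was shared by several genes. In the cortex of APP/PS1 mice on H2O, mouse 261 had the lowest level in all 10 of the called genes, on average 0.30 below the group mean. It was lowest in 1 of the other 32 genes and in 13.4% of all probes. The same array was the lowest for 6 of 12 microglial markers. In the MSX-3 group, mouse 267 had the highest level in 8 of the 10 genes, and in 16 of the other 32 and 22.4% of all probes. The values of the 10 genes in a mouse are thus not independent measurements.

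Cell type markers were measured on the same arrays. Of 12 microglial markers (Aif1, Csf1r, Cx3cr1, P2ry12, Tmem119, Itgam, C1qa, C1qb, C1qc, Fcrls, Siglech and Ptprc), 8 were called higher in the APP/PS1 cortex on H2O and 8 on MSX-3, with medians of 0.98 and 1.01. The 4 not called in H2O mice were P2ry12, Tmem119, Itgam and Siglech. In the hippocampus 4 and 3 were called, with medians of 0.43 and 0.41. The mean level of the 12 markers was 1.51 to 1.70 in the WT cortex and 2.36 to 2.65 in the APP/PS1 cortex of H2O mice, and 1.76 to 1.86 and 2.19 to 2.41 in the hippocampus. It therefore moved with the genotype as did Cd68, by less than Cd68 in the cortex. Their summed linear level, mostly that of Siglech, was 243 to 363 in WT and 306 to 360 in APP/PS1 mice in the cortex on H2O, and 236 to 314 and 297 to 377 on MSX-3. In the hippocampus it was 269 to 378 and 333 to 380 on H2O, and 245 to 344 and 327 to 374 on MSX-3. Without Siglech, the cortical sum was 92.25 to 129 in WT and 123.8 to 152.5 in APP/PS1 mice on H2O. On MSX-3 it was 87.1 to 118.4 and 127.9 to 149.6. The hippocampal sum without Siglech was 105.1 to 152 and 135.2 to 167.3 on H2O, and 101 to 152.3 and 141 to 169 on MSX-3. No microglial marker was called for MSX-3. The part of microglial abundance in the changes of the lysosomal genes was not tested.

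**Figure D4:**
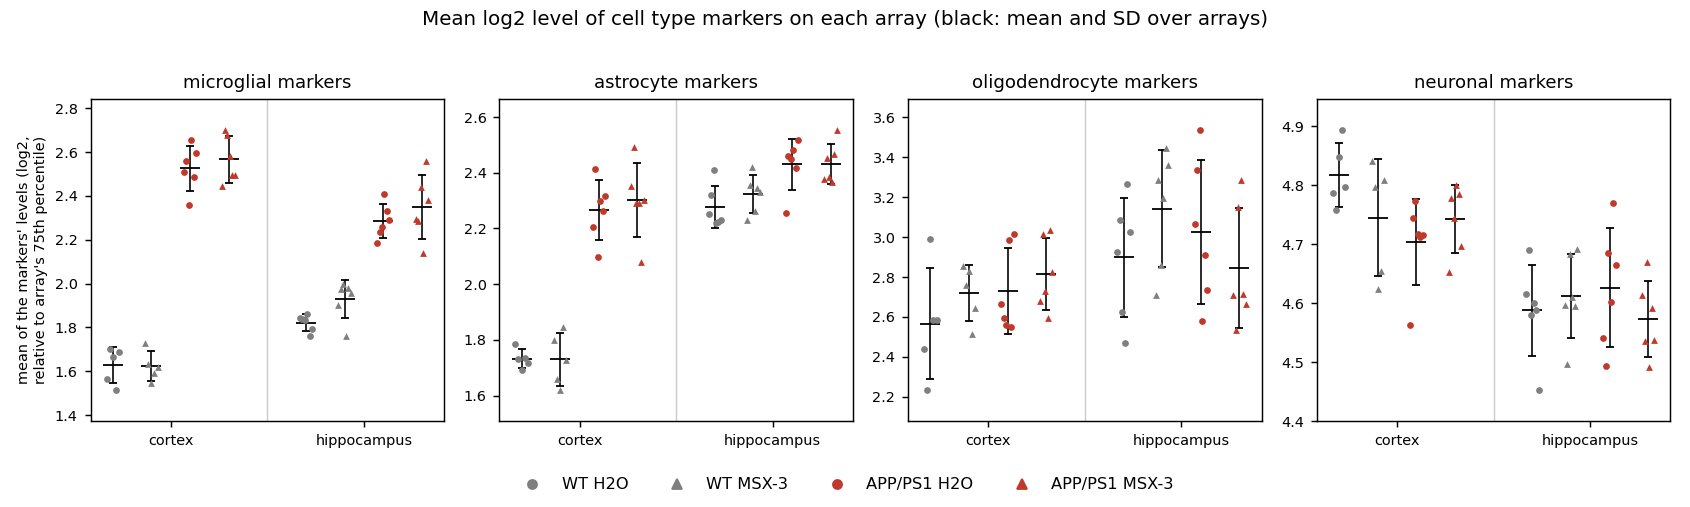
Mean level of the markers of 4 cell types on every readable array (vertical axes, log2 relative to the array's 75th percentile), with symbols as in the plot of the lysosomal genes and black bars for mean and SD. The microglial mean of APP/PS1 mice lies above all WT arrays in both tissues, 2.36 to 2.65 against 1.51 to 1.70 in the cortex on H2O.

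Among markers of perivascular and blood-derived macrophages, Lyve1 and Ccr2 were not above background in the cortex, and of the 4 measured (Mrc1, Cd163, Ms4a7 and F13a1) only Ms4a7 was called in the cortex of H2O mice. None was called by limma in the other 3 genotype comparisons (with p under 0.05 before adjustment in 1, 0 and 0 of them, for the MSX-3 cortex, H2O hippocampus and MSX-3 hippocampus). The MSX-3 cortex was close to a call. The smallest adjusted p of the 4 was 0.0517 there (limma), against 0.0236 in the H2O cortex. The largest log2 fold change was 0.67 and 0.64, respectively. Of 8 astrocyte markers 2 were called in each cortex comparison, Gfap and Vim. Gfap, the intermediate filament of reactive astrocytes, rose by 2.69 in H2O mice and Vim by 0.89. The median of the 8 was 0.14 there, with 5 above 0, and Aldh1l1, Gja1 and Slc1a2 were at -0.01, -0.06 and -0.06. In the hippocampus no astrocyte marker was called in H2O mice, where Gfap was at 0.69 (adjusted p = 0.0693, limma), and Gfap alone was called in MSX-3 mice (0.80; adjusted p = 0.00149). The summed level of the 8 was 53.5 to 63.5 in WT and 61.9 to 72.0 in APP/PS1 mice in the cortex on H2O. Their part was not tested either.

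In a wider list of 63 measured lysosomal genes outside the set, from hydrolases and transporters to the other pump subunits and the Ragulator complex, 2 genes were called in each cortex comparison, both higher. Of all cortical probes, 1.34% were called higher in H2O and 1.29% in MSX-3 mice. Tcirg1, a proton pump subunit, was called in both comparisons (0.76 ± 0.12 in H2O mice; adjusted p = 0.00448; and 0.91 ± 0.11 in MSX-3 mice). By limma 0 genes of the list were called in both hippocampal comparisons. There 5 and 3 of the 63 had an unadjusted p under 0.05, against 10.3% and 4.63% of all probes. Ctsa, the protective protein of β-galactosidase and the sialidase Neu1, was at 0.57 and 0.55 (adjusted p = 0.002 and 0.0037), below 1.5-fold. The median of the list was 0.00 in H2O and 0.10 in MSX-3 mice in the cortex.

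The scan day was unevenly spread over the groups, with 5 of 6 APP/PS1 arrays but 2 of 5 WT arrays of the H2O cortex read on the first day. Within the first day, all 10 genes were higher in the APP/PS1 cortex of H2O mice, by 0.59 for Cd63 to 2.10 for Cd68. With these arrays alone 5 of the 10 were called, Cd68, Gpnmb, Gusb, Naglu and Slc11a1, whereas Cd63, Grn, Hexa, Laptm5 and Man2b1 did not pass the test (adjusted p up to 0.178, for Cd63). Within the second day, with 1 APP/PS1 and 3 WT arrays, the values ran from 0.37 for Man2b1 to 2.20 for Cd68. All MSX-3 arrays of the APP/PS1 cortex were read on the first day, where the values were 0.62 to 2.15. In the hippocampus, the first day gave 0.90 to 1.26 for the 3 genes called in H2O mice, the second day holding no APP/PS1 array. In MSX-3 mice it was 0.61 to 1.21 on the first and 0.61 to 1.30 on the second day. The slides were uneven as well. In the H2O cortex slide 5 alone held readable arrays of both genotypes, WT mouse 258 with APP/PS1 mice 259 and 325. In the H2O hippocampus slides 2 and 5 did. Slide 2 held WT mouse 318 and APP/PS1 mouse 259, and slide 5 WT mouse 71 and APP/PS1 mouse 255. In a fit of the 2 groups alone, the slide as a block takes the genotype difference from these arrays only.

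Promoter windows were looked at since the called and the other genes differed in their change while sharing a compartment. The windows span 250 bases before to 50 bases after the gene start in RefSeq (GRCm38.p6), and 37 of the 43 genes had one, including all 10 called genes. Asah1, Atp6v0d2, Atp6v1b2, Galns, Npc1 and Plbd2 had none in the table used. A pair of motifs was searched on both strands, the E-box CACGTG, the core of the element bound by Tfeb, and GAGGAAG, a motif of the Ets type to which the myeloid factor PU.1 belongs. The longer palindrome TCACGTGA contains the E-box and was counted as well. The windows of the most changed gene and of 4 genes that carry a motif are given, with matches to either motif and to this palindrome in capitals, each read from 5′ to 3′ on the strand of the gene.
Cd68 (chr11:69666121-69666420, minus strand): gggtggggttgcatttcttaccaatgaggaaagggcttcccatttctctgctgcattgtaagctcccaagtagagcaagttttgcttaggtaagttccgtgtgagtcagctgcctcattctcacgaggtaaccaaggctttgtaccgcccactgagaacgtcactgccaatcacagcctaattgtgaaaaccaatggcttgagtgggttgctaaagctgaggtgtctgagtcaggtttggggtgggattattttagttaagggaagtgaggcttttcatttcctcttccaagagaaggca
Laptm5 (chr4:130913066-130913365, plus strand): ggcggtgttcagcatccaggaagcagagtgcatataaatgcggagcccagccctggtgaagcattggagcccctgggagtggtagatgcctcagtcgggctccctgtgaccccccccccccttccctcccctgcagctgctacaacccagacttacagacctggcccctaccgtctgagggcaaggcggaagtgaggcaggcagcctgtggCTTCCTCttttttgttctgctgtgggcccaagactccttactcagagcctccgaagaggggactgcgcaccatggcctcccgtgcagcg
Naglu (chr11:101069844-101070143, plus strand): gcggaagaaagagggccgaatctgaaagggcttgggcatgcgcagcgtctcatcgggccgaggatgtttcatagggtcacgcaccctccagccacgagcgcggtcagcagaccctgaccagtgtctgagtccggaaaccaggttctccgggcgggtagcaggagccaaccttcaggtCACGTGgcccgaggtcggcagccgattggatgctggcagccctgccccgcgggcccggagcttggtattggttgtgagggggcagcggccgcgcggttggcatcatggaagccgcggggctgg
Lamp1 (chr8:13158911-13159210, plus strand): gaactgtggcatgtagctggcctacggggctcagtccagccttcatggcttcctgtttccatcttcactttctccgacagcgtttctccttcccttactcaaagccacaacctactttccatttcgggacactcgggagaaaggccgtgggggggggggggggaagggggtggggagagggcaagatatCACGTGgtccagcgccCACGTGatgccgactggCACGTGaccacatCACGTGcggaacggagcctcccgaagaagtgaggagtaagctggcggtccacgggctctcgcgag
Mcoln1 (chr8:3500269-3500568, plus strand): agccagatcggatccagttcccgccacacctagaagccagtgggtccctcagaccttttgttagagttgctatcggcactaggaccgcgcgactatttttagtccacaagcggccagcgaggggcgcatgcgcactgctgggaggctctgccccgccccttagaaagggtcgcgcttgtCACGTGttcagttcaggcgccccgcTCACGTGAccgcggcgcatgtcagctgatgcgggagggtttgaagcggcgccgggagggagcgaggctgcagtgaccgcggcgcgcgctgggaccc

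The window of Cd68, raised most, held neither motif. That of Laptm5 held the Ets-type motif on the opposite strand, with its first base at position -39 from the gene start, and that of Naglu 1 E-box at -73. Lamp1 and Mcoln1, which were not called, held 4 E-boxes, at -61, -45, -28 and -15, and 2, at -71 and -45, respectively. The second of Mcoln1 lies in the longer palindrome.

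The E-box was found in the windows of 12 of 37 genes (32.4%), compared to 8.09% of all 27025 genes with a window. It was in 1 of the 10 called genes (10%), Naglu, and in 11 of the other 27 (40.7%), namely Arsa, Atp6v0d1, Atp6v1a, Cln3, Gaa, Gla, Glb1, Lamp1, Lgmn, Mcoln1 and Sgsh. TCACGTGA was in 5 of the 37 (13.5%; 1.12% of all genes), which were Atp6v0d1, Atp6v1a, Cln3, Gla and Mcoln1, and in none of the 10. The Ets-type motif was in 4 of the 10 called genes (40%), Cd63, Gusb, Laptm5 and Man2b1, and in 3 of the other 27 (11.1%), Cln3, Gla and Lipa, compared to 15.4% of all genes. No called gene held both. The counts describe letters in these windows and were not tested.

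**Figure D5:**
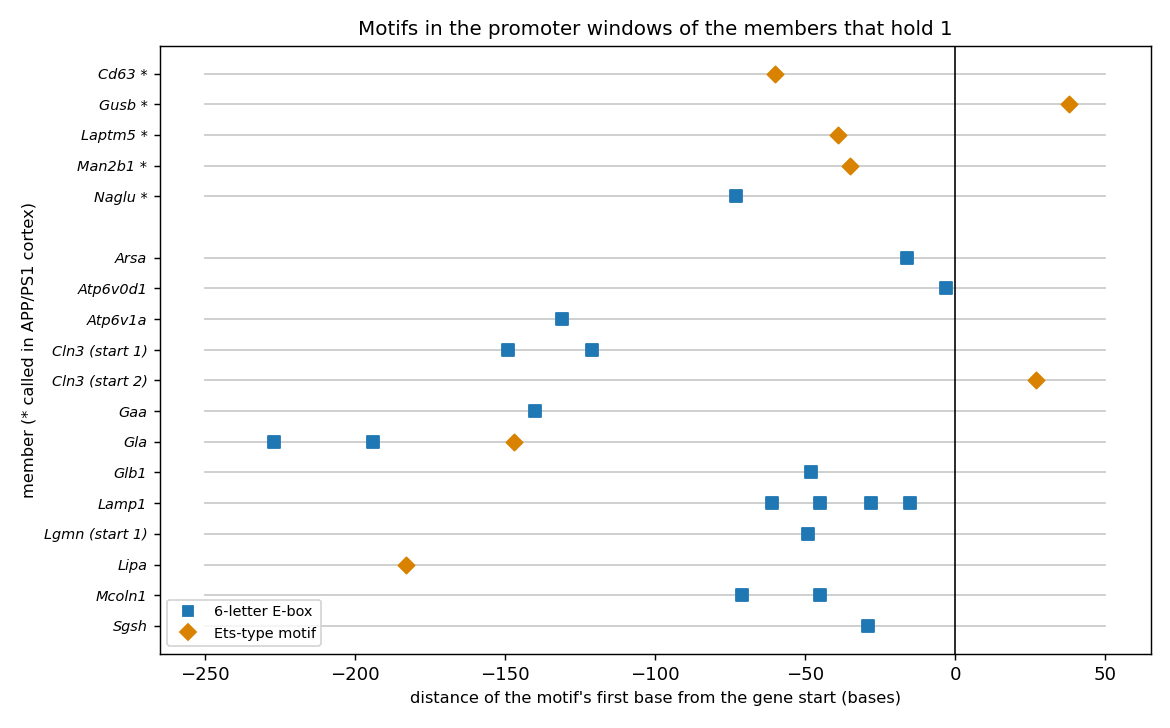
Position of the 6-letter E-box (squares) and the Ets-type motif (diamonds) in the promoter windows of the genes that hold a match, as distance in bases from the gene start (horizontal axis). Genes called in the APP/PS1 cortex are on top and marked by a star: 4 of these 5 hold the Ets-type motif and Naglu the E-box, while 11 of the genes below hold an E-box.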

How the data were processed

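Total RNA of the cortex and hippocampus of each mouse was labeled with Cy3 and hybridized on one-color mouse arrays of 62976 spots. The intensities deposited by the authors are those of Agilent Feature Extraction 10.7.3.1, with background subtracted and no normalization between arrays. The series matrix holds the same 3022848 values (relative tolerance 1e-06). The authors' scaling to the 75th percentile, background filter and tests came after these values, so equivalents were run here.

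Control spots (3671) and spots marked as outliers were left out. After log2 transformation and subtraction of the 75th percentile of each array, replicate spots were averaged, which gave 56605 probes. Probes had to be well above background on 4 or more arrays of any group of the tissue, which left 37680 cortical and 38128 hippocampal probes. RefSeq named 32994 probes. Where a gene had several probes, the brightest kept one stands for it. Groups were compared with lmFit and eBayes in limma 3.58.1 (R 4.3.3 with the package data.table, version 1.17.8) with no other arrays than those of the groups compared. Adjusted p-values are those of limma with the Benjamini-Hochberg method over all kept probes, and 95% intervals come from the same fits. The procedure was tested on simulated data, and figures were drawn with Python 3.11.15 and matplotlib 3.10.9. The number of arrays per group, 5 or 6, limits the precision.

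The members, the marker lists, the role groups and the tests were chosen with earlier results of these data known. Each member is named. Values are given in full for called members and for the 5 not called with the smallest adjusted p in each genotype comparison, and outside the set for a called gene of the list of other lysosomal genes and for Ctsa, which was chosen after its values were seen, as were the 2 motifs shown and Ms4a7, Gfap, Vim, Aldh1l1, Gja1 and Slc1a2 among the markers. The result of 1 other called gene of that list is not reported here. Alternatives were all arrays kept, normexp with an offset of 50, quantile normalization, the percentile over kept probes, the series matrix, no minimum fold change, a stricter or no filter on dim probes, array weights, an intensity trend, a fit of all 4 groups of the tissue, slide or scan day as a block, each mouse left out, the mean of a gene's probes, and, between tissues, the mouse as a block. Arrays of the first scan day alone were added after seeing the data. Tissues of 1 mouse pair the arrays by animal. Over 22 mice with both arrays readable, the deviations from the group means correlated with a median r of 0.0384 (-0.52 to 0.499) over 36743 probes, above 0.1 in 10 mice.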

Additional observations from a re-analysis of the deposited data

Results flagged for a closer look

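Among 88 sets of 1 called gene in 1 group, 4 held an array that stood apart from the others of its group, and chance alone gives about 1 in 20. In the APP/PS1 cortex on H2O, Cd68 was at 1.43 in mouse 261, the next array being at 1.89. In the WT cortex on MSX-3, Laptm5 was at -1.90 in mouse 304 (next -1.01) and Man2b1 at 1.49 in mouse 282 (next 1.18). In the WT hippocampus on MSX-3, Naglu was at 1.01 in mouse 304 (next 1.40).

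The effect of the genotype differed between the tissues by the test of the difference itself, being larger in the cortex. In H2O mice this was so for Cd68 (0.94), Gpnmb (1.14) and Gusb (0.72), and in MSX-3 mice for Cd68 (0.92), Slc11a1 (0.94) and Gusb (0.67), on the log2 scale with adjusted p-values from limma given above.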

How the results depend on the processing

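No called value changed its sign under any alternative. Of 538 values of called genes under other settings, 469 stayed past the thresholds and 69 did not, and of 376 with a mouse left out, 339 and 37. Cd68 kept its call under all 17 other settings in the cortex of H2O mice. The number of genes called there, 10, became 2 (Cd68 and Gusb) with all arrays kept and 8 to 11 with a mouse left out. It was 4 with the slide as a block in the pairwise fit and 5 on the first scan day alone. In MSX-3 mice it fell from 10 to 1 (Cd68) with all arrays kept, and was 8 to 10 with a mouse left out. The slide as a block in the pairwise fit could not be fitted there, as no slide held readable arrays of both genotypes. In the hippocampus, 3 genes became 0 with the slide as a block in the pairwise fit of H2O mice. The count was 3 with any mouse left out in both treatments. In MSX-3 mice it was 2 to 4 under the other settings. For MSX-3 in the WT cortex, array weights called 1 gene, Cln3, instead of 0.

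The difference of the genotype effect between the tissues was called for 3 genes in H2O mice, 0 with all arrays kept, 1 with the mouse as a replicate block and 1 to 4 with a mouse left out. Without mouse 325 or mouse 56 of these only Cd68 was called. In MSX-3 mice the 3 genes became 1 with all arrays kept, 2 with the mouse as a replicate block, 0 with the slide as a block and 2 to 4 with a mouse left out. Between the tissues of WT mice, 2 genes became 0 with all arrays kept, 11 without a minimum fold change and 2 to 3 with a mouse left out. The mouse as a block changed no other call. The 2 arrays that the scanner could not grid enter only where all arrays were kept. In the other cases the cause was not tested.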
